A study of Homo sapiens with 6 samples.

Results

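The genes examined were 10 transcription factors and early response genes, namely FOS, FOSL1, JUN, JUNB, JUND, EGR1, IER2, IER3, ATF3 and MYC. They were taken by symbol from the deposited table of 17047 genes, which held each of them, and all 10 passed the filter on low counts that left 12959 genes for testing. The libraries came from HCT116, an established human colorectal carcinoma cell line, sequenced as poly(A) RNA in single-end reads of 50 bases. 3 libraries came from cells carrying an shRNA against PLEK2, a pleckstrin family protein of the membrane and cytoskeleton, and 3 from cells carrying shNC, a non-targeting shRNA. Both shRNAs were delivered by lentivirus from the pLKO.1 vector, the methods list 1 shRNA sequence for PLEK2, and no further treatment or time is labelled. The knockdown libraries are numbered like the controls, and the numbers were read as replicates. Nothing states that the libraries of a group came from separate cultures, so a p-value measures the spread between these libraries, which may be technical.

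Immediate early genes are transcribed within minutes of a growth factor or stress signal without the need for new protein, because kinases such as ERK, JNK and p38 act on factors already bound at their promoters. FOS and JUN proteins pair through leucine zippers into AP-1, which binds TPA response elements, while MYC pairs with MAX and binds E boxes in genes of ribosome production and growth. Many of these RNAs carry AU-rich elements in the 3′ UTR and decay quickly. In colorectal carcinoma cells with an active RAS pathway several of them are expressed without an added stimulus.

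Short stretches of 4 promoters that hold matches to the motifs searched are shown. RefSeq promoters (GRCh38.p14) were at hand for 7 of the 10 genes, in 8 windows of which the 250 bases upstream of the start were searched on both strands. The entries for FOSL1, IER3 and MYC were missing. Capitals mark the match, and each stretch is written 5′ to 3′ on the strand of the gene.

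JUN, chr1:58784095-58784126, minus strand: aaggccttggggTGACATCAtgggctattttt
EGR1, chr5:138465362-138465417, plus strand: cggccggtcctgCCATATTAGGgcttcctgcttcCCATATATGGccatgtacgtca
FOS, chr14:75278783-75278812, plus strand: taaaacgcttgtTATAAAagcagtggctgc
JUND, chr19:18281803-18281834, minus strand: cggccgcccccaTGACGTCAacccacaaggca

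The JUN stretch holds TGACATCA, the variant AP-1 site of its promoter, which also stood in 1 of the ATF3 windows and in 2.37% of all 35116 windows. EGR1 holds 2 CArG boxes, the element of serum response factor, and 1.16% of all windows hold one. TATAAA stood in the FOS stretch, in the JUNB window and in the other ATF3 window, and in 10.7% of all windows. JUND holds TGACGTCA, the cAMP response element, which 1.65% of all windows hold. TGANTCA, which takes any base at N and so is looser than the TPA response element, matched in none of the 8 windows and in 6.57% of all windows. The share of windows with the TPA response element itself was not counted. No CArG box matched in the FOS window, and bases farther upstream were not searched. These matches describe the letters only.

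By their medians, the 10 transcripts were shorter and richer in GC than those of all genes. MYC went the other way, at 3721 bases and 48.8% GC. Over the GENCODE 44 transcripts of 12452 tested genes, the median GC content was 57.1% for the 10 genes and 49.1% for all, the median number of exons was 2 against 9, and the median length was 2022 against 3370 bases. The pentamer ATTTA of AU-rich elements occurred in the 3′ UTR of 9 of the 10 genes, IER2 being the exception, and in 72.2% of all genes. The nonamer TTATTTATT occurred only in FOS among the 10 and in 9.36% of all genes. In FOS it starts at base 646 of the 3′ UTR and is shown with its flanks, the nonamer in capitals.

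FOS, 3′ UTR: tttttaatTTATTTATTaagatgga

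PLEK2 (gene ID 26499) itself was lower in the knockdown, at 86.0, 72.6 and 82.9 CPM in shNC and 16.0, 32.2 and 34.9 CPM in PLEK2 shRNA. CPM here are counts scaled to library size with TMM factors, the trimmed mean scaling of edgeR. The PLEK2 log2 fold change was -1.54 (SE 0.244), with an adjusted p of 0.684 without and 0.00107 with the replicate number as a block (edgeR's quasi-likelihood test, Benjamini-Hochberg). DESeq2 without the block gave -1.53 and an adjusted p of 5.02e-07. The same edgeR test, again without the block, called PLEK2 once the GC offset described below was added (-1.51, adjusted p 0.0432). It also called PLEK2 when PLEK2 shRNA replicate 1 was left out (-1.26, adjusted p 0.0105). The call for PLEK2 without the block thus varied with the tool, the GC offset and the libraries included. Library totals ranged from 14377532 to 15602732 estimated counts. Of the epithelial and colon markers, EPCAM, KRT8, KRT18, KRT19, CDH1 and CDX2 were expressed, at 21.0 CPM or more in every library, and VIL1 was at or near 0 (0 to 3 counts). Of 10 markers of other cells, 7 were in the table, and COL1A1 and CD68 made up nearly all of their summed level, which was 64.8 to 88.6 CPM in shNC and 64.0 to 75.4 CPM in PLEK2 shRNA.

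The genes were expressed at very different levels. On the FPKM scale, which divides by transcript length, IER3, a regulator of survival and stress signalling, had the highest level at 387 ± 18.4 FPKM (SD, n = 3) in shNC, above 99.1% of all genes in the table by its mean over the 6 libraries. FOSL1 followed at 248 ± 2.07 FPKM, EGR1 at 199 ± 16.5 FPKM and IER2 at 156 ± 18.7 FPKM. None of these 4 overlapped its neighbour in this order over the shNC libraries. In the PLEK2 shRNA libraries, FOSL1 and EGR1 overlapped.

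MYC at 103 ± 10.2 FPKM, JUNB at 97.6 ± 11.1 FPKM and FOS at 74.2 ± 10.8 FPKM came next in shNC. MYC overlapped with JUNB, and JUNB with FOS. JUND at 32.0 ± 5.62 FPKM and JUN at 27.2 ± 1.34 FPKM overlapped as well. ATF3 had the lowest level, 11.9 ± 4.42 FPKM, and stood above 65.8% of all genes by its mean over the 6 libraries.

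**Figure D1:**
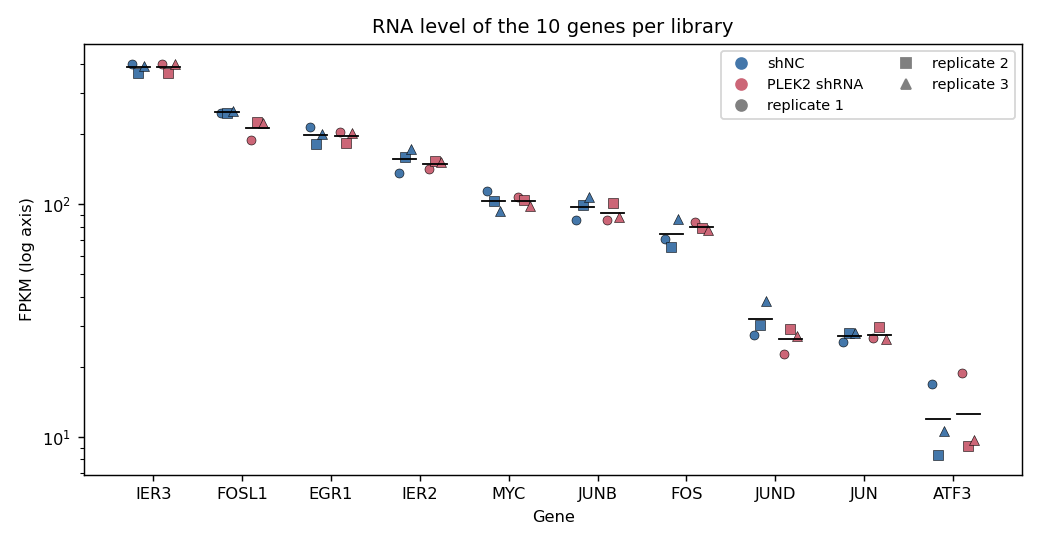
RNA level of the 10 genes in FPKM (log axis) in each library, shNC in blue and PLEK2 shRNA in red, ordered by the shNC mean, with marker shapes for replicates 1 to 3 and a bar at the group mean of 3. IER3 is highest and ATF3 lowest, FOSL1 is the only gene whose groups do not overlap in FPKM, and ATF3 is high in replicate 1 of both groups.

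No member was called changed by PLEK2 shRNA, and neither was any other gene in the fit of group alone. At an adjusted p under 0.05, 0% of the 12959 genes were called without the replicate block and 0.849% (110 genes) with it, and 0 of the 10 members in both fits (edgeR's quasi-likelihood test, Benjamini-Hochberg). At an unadjusted p under 0.05, 1 member, FOSL1, and 400 of the 12959 genes passed without the block. With it, 2 members, FOSL1 and JUND, and 2378 of the 12959 genes (18.4%) passed. DESeq2 without the block called 12 genes and no member. With 3 libraries against 3, a two-sided exact permutation test of 1 gene cannot give a p under 0.1. The median log2 fold change was -0.04 over the members and -0.002 over all genes tested, and the median of its size was 0.06 and 0.10.

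The block is reported beside the results because libraries with the same number moved together, for a reason that the labels and methods do not state. In bulk RNA, fewer cells expressing a gene and less RNA per cell cannot be told apart.

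Of the FOS family, FOSL1 had lower values in every knockdown library and FOS did not. FOSL1 (gene ID 8061), which encodes FRA1, the FOS family subunit associated with invasive carcinoma cells and sustained ERK signalling, stood at 396, 395 and 399 CPM in shNC and at 291, 358 and 349 CPM in PLEK2 shRNA. All 3 knockdown libraries lay below all 3 controls, and the control values were nearly equal. FOSL1 was the 1 member of 10 with groups that did not overlap and were lower in the knockdown, against 5.12% of all genes tested. No member was higher without overlap, against 4.08% of all genes. The FOSL1 log2 fold change was -0.25 (SE 0.0909), a level 16.1% lower, with an adjusted p of 0.968 without the block and 0.071 with it (edgeR's quasi-likelihood test, Benjamini-Hochberg).

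The FOSL1 difference was lower in each same-numbered pair, at log2 ratios of -0.44, -0.14 and -0.19. Pair 1 had the largest FOSL1 fall of the 3. PLEK2 also fell most in pair 1 (a log2 ratio of -2.39 against -1.16 and -1.23), while JUND fell most in pair 3 (-0.52). Whether the size of a fall goes with that of PLEK2 was not tested. Without replicate 1 in both groups the blocked FOSL1 value was -0.16 (adjusted p 0.0642), without replicate 2 it was -0.31 (adjusted p 0.279), and without replicate 3 it was -0.28 (adjusted p 0.0247, edgeR's quasi-likelihood test). Without PLEK2 shRNA replicate 1 alone and without the block it was -0.165. DESeq2 with the block gave -0.25 and an adjusted p of 0.0496, so the call for FOSL1 turned on the tool.

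FOS (gene ID 2353), the founding AP-1 subunit and a direct target of serum response factor, had 145, 134 and 175 CPM in shNC and 166, 159 and 154 CPM in PLEK2 shRNA. The knockdown values lay inside the control range. Its log2 fold change was 0.07 (SE 0.106), with a 95% interval of -0.17 to 0.31, and its pairs went both ways (0.19, 0.24 and -0.18). The 2 other FOS family genes were chosen by the naming rule from the list of AP-1 subunits. FOSB had 165, 159 and 205 CPM in shNC and 154, 146 and 150 CPM in PLEK2 shRNA, without overlap (blocked log2 fold change -0.23, adjusted p 0.118, edgeR's quasi-likelihood test). FOSL2 overlapped (blocked log2 fold change -0.18, adjusted p 0.202). With a further offset for GC content, described below, FOSB was at -0.16 and FOSL2 at -0.15.

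By FPKM, FOSL1 made up 65.01 ± 2.84% (SD, n = 3) of the summed level of FOS, FOSB, FOSL1 and FOSL2 in shNC and 61.5 ± 3.28% in PLEK2 shRNA. FOS made up 19.4 ± 1.76% and 23.2 ± 2.2%. The exact permutation p (two-sided) was 0.3 for the FOSL1 share and 0.1, the smallest possible, for the FOS share. Over the 7 shares tested in the FOS and JUN families, the lowest p adjusted by Benjamini-Hochberg was 0.233.

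In the JUN family, JUND had the largest difference, and JUN and JUNB had smaller ones. JUND (gene ID 3727), the JUN protein most abundant in resting cells and often linked to growth restraint, had 51.0, 55.9 and 70.3 CPM in shNC and 40.3, 53.0 and 48.7 CPM in PLEK2 shRNA. The groups overlapped, and shNC replicate 3 was the highest library. The JUND log2 fold change was -0.32 (SE 0.145), a level 19.8% lower, with an adjusted p of 0.968 without and 0.0781 with the block (edgeR's quasi-likelihood test, Benjamini-Hochberg). Its pair log2 ratios were -0.33, -0.08 and -0.52, and the blocked value was -0.30 (adjusted p 0.0263) without replicate 1 in both groups, -0.42 (adjusted p 0.181) without replicate 2 and -0.19 (adjusted p 0.278) without replicate 3. Without shNC replicate 3 alone, and without the block, the JUND value was -0.17.

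JUNB (gene ID 3726), an AP-1 subunit that can oppose JUN on some targets, had 146, 169 and 181 CPM in shNC and 140, 169 and 145 CPM in PLEK2 shRNA. The groups overlapped, with pair log2 ratios of -0.05, -0.002 and -0.32, so that pair 3 alone held nearly the whole difference. The log2 fold change was -0.13 (SE 0.108), with a 95% interval of -0.37 to 0.12.

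JUN (gene ID 3725), which encodes the subunit activated by JNK and also drives its own promoter through the site shown above, had 83.0, 90.1 and 89.6 CPM in shNC and 83.2, 94.4 and 82.7 CPM in PLEK2 shRNA. The ranges were nearly the same, and the log2 fold change was -0.01 (SE 0.0877), with a 95% interval of -0.21 to 0.19. Its sign turned positive with scaling by library totals. By FPKM, JUNB held 62.2 ± 0.794% of the summed JUN family level in shNC and 63.0 ± 0.653% in PLEK2 shRNA, JUND held 20.4 ± 1.5% and 18.1 ± 1.21%, and JUN held 17.4 ± 1.2% and 19.0 ± 0.669%. The exact permutation p (two-sided) of these shares was 0.2, 0.1 and 0.1, of which 0.1 is the smallest possible. The shares of both families were computed without the GC offset. JUND has 69.9% GC against 56.1% for JUN, and FOSL1 58.7% against 52.8% for FOS.

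EGR1, IER2, IER3 and MYC differed little between the groups. EGR1 (gene ID 1958), a zinc finger factor induced through CArG boxes, had 651, 550 and 606 CPM in shNC and 602, 549 and 598 CPM in PLEK2 shRNA. The groups overlapped, and replicate 2 was the lowest library of each. The log2 fold change was -0.05 (SE 0.0854), with a 95% interval of -0.24 to 0.15.

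IER2 (gene ID 9592), a nuclear protein of the early growth response, had 265, 309 and 333 CPM in shNC and 264, 294 and 287 CPM in PLEK2 shRNA. Replicate 1 was the lowest in each group, and the log2 fold change was -0.10 (SE 0.0980), with a 95% interval of -0.32 to 0.12. IER3 (gene ID 8870) had 447, 407 and 436 CPM in shNC and 431, 402 and 435 CPM in PLEK2 shRNA. Its log2 range over the 6 libraries was 0.15, the smallest of the members on this scale, and 0.31 on the scale with the GC offset, where IER2 had the smallest at 0.11. IER3 had pair log2 ratios of -0.05, -0.02 and -0.003, and a 95% interval for the log2 fold change of -0.19 to 0.14.

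MYC (gene ID 4609), the driver of growth and ribosome production that Wnt signalling keeps high in colorectal carcinoma, had 507, 457 and 410 CPM in shNC and 461, 455 and 424 CPM in PLEK2 shRNA. All knockdown values lay inside the control range. The MYC log2 fold change was -0.04 (SE 0.0914), with a 95% interval of -0.24 to 0.17, and its pair log2 ratios were -0.14, -0.007 and 0.05. With the block, the 95% interval was -0.15 to 0.09.

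Within pairs, 6 of the 10 members (FOSL1, JUNB, JUND, EGR1, IER2 and IER3) were lower in all 3 pairs, against 21.1% of all genes tested, and none was higher in all 3, against 19.9%. The smallest of these ratios were near 0, at -0.001 for IER2 in pair 1 and -0.002 for JUNB in pair 2. The median SD of the 3 pair log2 ratios was 0.10 over the members and 0.12 over all genes tested. All 10 genes were read in high number, from 278 counts for ATF3 in shNC replicate 2 to 9992 counts for EGR1 in shNC replicate 1.

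**Figure D2:**
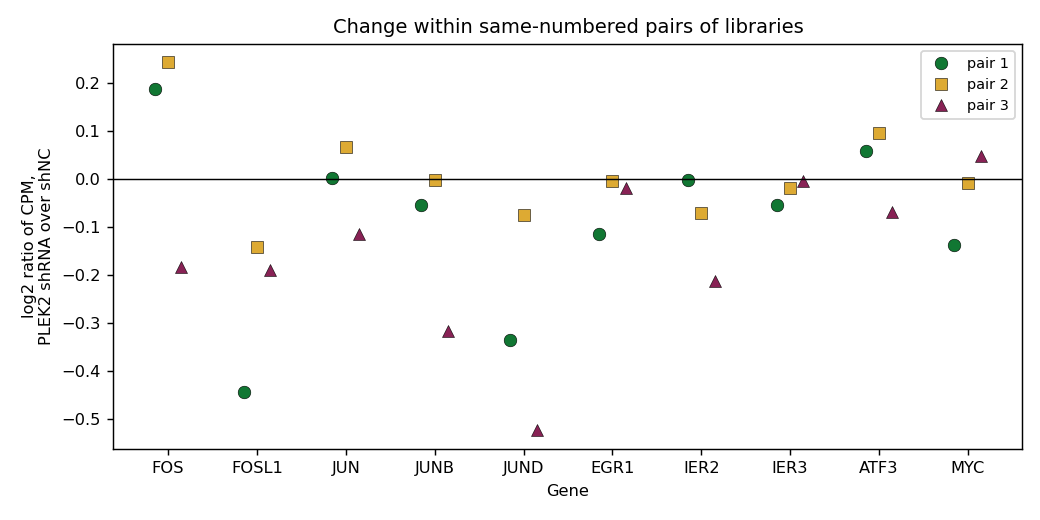
log2 ratio of CPM, PLEK2 shRNA over shNC, in each same-numbered pair of libraries for the 10 genes, with a line at 0. FOSL1 and JUND lie below 0 in all 3 pairs, FOS and MYC lie on both sides of it, and IER3 lies within 0.06 of it.

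GC content of the transcripts moved with these differences. Across the 9964 genes that had a GC value and a log2 CPM averaging more than 3, the log2 fold change of PLEK2 shRNA over shNC correlated with GC content at a Spearman rho of -0.612, a description over genes that share the 6 libraries. The median log2 fold change was 0.11 for genes with up to 40% GC, -0.07 for those with 55 to 60% and -0.16 for the 386 genes above 65%. JUND had 69.9% GC, JUNB 64.9%, IER2 63.0% and FOSL1 58.7%. Over the same 9964 genes, the log2 ratio of replicate 1 to the mean of replicates 2 and 3 also correlated with GC content. The Spearman rho was -0.723 in shNC and -0.722 in PLEK2 shRNA.

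An offset for GC content in each library, added after these values were seen, changed several members. With the block and the offset, JUND went from -0.32 to -0.13 (SE 0.0705, adjusted p 0.525) and FOSL1 from -0.26 to -0.18 (SE 0.0587, adjusted p 0.238, edgeR's quasi-likelihood test). JUNB went from -0.12 to 0.01 and IER2 from -0.10 to 0.03, that is, across 0. The median over the members was 0.02, and over the 12452 genes with a GC value it was 0.006.

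On the scale with the offset, FOSL1 had 431, 385 and 382 CPM in shNC and 335, 364 and 357 CPM in PLEK2 shRNA. FOSL1 was again the 1 member lower without overlap, against 5.11% of all genes, and the 1 member lower in all 3 pairs, against 14.9%. IER3 was the 1 member higher in all 3 pairs, against 18.2%. No member was called with the offset alone, which called 0.0723% of 12452 genes, or with the offset and the block, which called 0.811%. Whether, and how far, the FOSL1, JUND, JUNB and IER2 differences belong to GC content was not tested beyond these values.

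**Figure D3:**
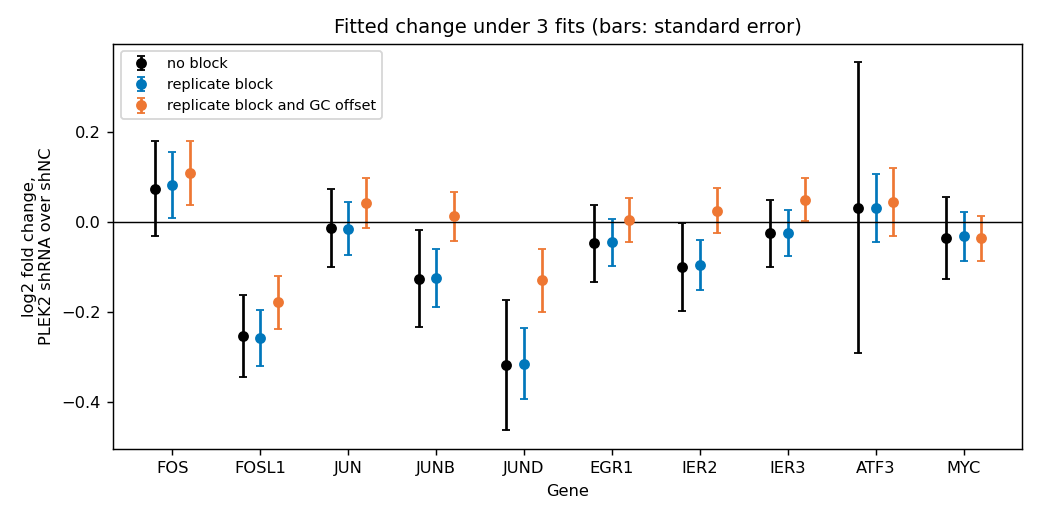
log2 fold change of PLEK2 shRNA over shNC with its standard error for the 10 genes, from the fit of group alone (black), with the replicate block (blue), and with the block and a GC offset per library (orange). JUND moves from -0.32 to -0.13 and JUNB from -0.12 to 0.01 between the last 2 fits, FOSL1 stays below 0 in all 3, and the wide bar of ATF3 narrows with the block.

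ATF3 differed between replicate numbers in both groups. ATF3 (gene ID 467), an ATF/CREB factor that is induced by many stresses and pairs with JUN proteins, had 41.1, 19.6 and 24.4 CPM in shNC and 42.8, 21.0 and 23.2 CPM in PLEK2 shRNA. Replicate 1 was the highest library of each group, 1.87-fold the mean of replicates 2 and 3 in shNC and 1.93-fold in PLEK2 shRNA. The ATF3 log2 fold change for the knockdown was 0.03 (SE 0.323) without and 0.03 (SE 0.0755) with the block, with 95% intervals of -0.70 to 0.77 and -0.13 to 0.19. Its direction turned with single libraries left out.

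The test of the replicate number (edgeR's quasi-likelihood F test, Benjamini-Hochberg) called 3 of the 10 members, against 28.4% of all genes tested. ATF3 had an F of 76.5 and an adjusted p of 4.9e-05, JUND an F of 7.83 and an adjusted p of 0.0272, and IER2 an F of 6.14 and an adjusted p of 0.0478. JUNB (0.0686), MYC (0.0735) and EGR1 (0.0896) had adjusted p-values just above the threshold. The median F was 4.74 over the members and 2.81 over all genes.

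With the GC offset the test of the replicate number called 7.9% of 12452 genes and again 3 members, of which only ATF3 was also called without it. ATF3 had an F of 84.7 (adjusted p 2.03e-05), EGR1 an F of 13.5 (adjusted p 0.0143) and IER3 an F of 11.4 (adjusted p 0.023). JUND and IER2 fell to an F of 0.66 (adjusted p 0.709) and 0.292 (adjusted p 0.852). On the scale with the offset, EGR1 had 694, 547 and 598 CPM in shNC and 674, 558 and 609 CPM in PLEK2 shRNA, and IER3 had 484, 398 and 419 CPM and 493, 409 and 444 CPM. Replicate 1 was the highest library of both groups for both genes.

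ATF3 has 50.4% GC, and the genes with 50 to 55% GC had a median log2 ratio of replicate 1 over the mean of replicates 2 and 3 of -0.05 in shNC and -0.10 in PLEK2 shRNA. ATF3 had 0.89 and 0.94. The genes whose profile over the 6 libraries lay nearest to that of ATF3, by the root mean square difference of centred log2 CPM over 10230 genes, were HMMR (0.058), NBEAL1 (0.097), SLC7A11 (0.099), MSMO1 (0.10) and C18orf54 (0.10), against an own spread of ATF3 of 0.44. HMMR, a mitotic spindle and hyaluronan binding protein, had 35.3, 16.9 and 19.2 CPM in shNC and 37.1, 19.0 and 19.9 CPM in PLEK2 shRNA. SLC7A11 is the cystine transporter and MSMO1 an enzyme of cholesterol synthesis. These 5 genes have GC contents of 34.6 to 37.4%, below that of ATF3.

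The pathway around these genes was followed in 8 lists, in which 0 genes were called for the knockdown with or without the block or with the block and GC offset, against 0%, 0.849% and 0.811% of all genes. Of 10 tested AP-1 subunits other than the members, the median log2 fold change was -0.08, and 0.03 with the block and offset. Of 35 other immediate early genes the median was -0.04. The nearest were IER5L (blocked log2 fold change -0.27, adjusted p 0.0956) and BTG2, an antiproliferative p53 target (0.34, adjusted p 0.0966), and with the offset they were at -0.13 and 0.35. BTG2 had 30.2, 20.5 and 24.8 CPM in shNC and 42.2, 28.3 and 25.5 CPM in PLEK2 shRNA, with overlap.

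Of 17 upstream kinases and promoter factors the median log2 fold change was 0.03. ELK3, an ETS domain partner of serum response factor, had 114, 76.6 and 70.9 CPM in shNC and 75.9, 72.9 and 63.8 CPM in PLEK2 shRNA, and its blocked value was -0.28 (adjusted p 0.12). The ERK kinase gene MAP2K2 was at -0.16 (adjusted p 0.128), and at -0.02 with the offset. Of 8 decay factors of AU-rich RNAs the median was 0.02, and the nearest were KHSRP (-0.13, adjusted p 0.23) and ELAVL1 (0.06, adjusted p 0.587). With the block and offset, ELK3 was at -0.33 (adjusted p 0.069), KHSRP at -0.05 and ELAVL1 at 0.03.

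Of 15 AP-1 target genes the median log2 fold change was -0.03, the nearest being KRT18 (blocked log2 fold change -0.24, adjusted p 0.0842), a simple epithelial keratin, and HMGA1 (-0.19, adjusted p 0.132), a chromatin protein. Of 13 genes of the MYC network, MLXIPL was at -0.29 (adjusted p 0.129) and the MAX partner MNT at -0.18 (adjusted p 0.143), with a median of -0.02. Of 25 MYC targets the median was -0.02. MYBBP1A, a nucleolar protein, had 230, 302 and 287 CPM in shNC and 178, 263 and 253 CPM in PLEK2 shRNA, with a blocked value of -0.25 (adjusted p 0.0537), and RRP12, a ribosome export factor, had -0.21 (adjusted p 0.0995). With the block and offset, MYBBP1A was at -0.15 (adjusted p 0.279), RRP12 at -0.13, KRT18 at -0.17, HMGA1 at -0.08, MLXIPL at -0.17 and MNT at -0.08.

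Of 7 heat shock genes, listed as signs of handling stress, the median log2 fold change was -0.003. HSPB1, a small heat shock protein, had 255, 243 and 264 CPM in shNC and 208, 224 and 214 CPM in PLEK2 shRNA without overlap (blocked log2 fold change -0.24, adjusted p 0.065, and -0.10 with the offset), and DNAJB1 was at -0.08 (adjusted p 0.534, and -0.05 with the offset). The summed epithelial and colon markers lay between 7679 and 8807 CPM in shNC and between 6154 and 8041 CPM in PLEK2 shRNA, led by KRT8, KRT18 and KRT19. Of 6 tested genes of this list 0 were called and the median difference was -0.20 on the log2 scale, while KRT19 had a blocked value of -0.20 (adjusted p 0.0844). With the block and offset the median was -0.11 and KRT19 was at -0.09 (adjusted p 0.52). Of 3 tested markers of other cells 0 were called, with COL1A1 at a blocked value of -0.20 (adjusted p 0.187) and CD68 at -0.10 (adjusted p 0.458), and at -0.09 and -0.05 with the offset.

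By replicate number, 5 of 7 heat shock genes, 13 of 25 MYC targets, 16 of 35 other immediate early genes, 7 of 17 upstream genes, 5 of 13 MYC network genes, 5 of 15 AP-1 targets, 2 of 8 decay factors and 1 of 10 other AP-1 subunits were called, against 28.4% of all genes tested. These counts are from the fit without the GC offset, and with the offset 7.9% of all genes were called. The lists were not counted by replicate number with the offset. What a replicate number stands for is not given in the sources used here.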

How the data were processed

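Poly(A) RNA of HCT116 cells was sequenced in 6 libraries, 3 per group, grouped and numbered by the labels, and 0 per-sample columns were left unassigned. The authors deposited estimated counts per gene, not normalized, and values scaled to length. The submitters' processing notes name HISAT2 2.0.4, Bowtie2 2.2.5, RSEM 1.2.12, DESeq2 1.4.5 and the build GRCm38.p6, a mouse build, although the table holds human genes. The deposited values scaled to length carry no unit in their header and were read as FPKM.

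Counts were rounded and filtered (filterByExpr), scaled by TMM (factors 0.984 to 1.02) and tested with edgeR 4.0.16 (quasi-likelihood, Benjamini-Hochberg, threshold 0.05) in R 4.3.3. The standard error is the log2 fold change over the square root of F. limma 3.58.1, DESeq2 1.42.0, other scalings, filters and left-out libraries were alternatives, and edgeR fits were tested on simulated data. The GC offset (a spline per library over the GC content of the GENCODE 44 transcript, matched by symbol) was chosen after seeing the data. Over 10231 genes, same-numbered libraries deviated together from their groups (correlations of 0.736, 0.561 and 0.562, against -0.628 to 0.362 for other numbers), so the numbers were taken to pair the libraries, from the data and the shared numbers in the labels.

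The 10 members and the lists were chosen with earlier results of these data known. Within a list, genes called in either fit were named, up to 5, and otherwise the 2 with the smallest p in the blocked fit. For likeness, the 5 genes nearest to the member with the widest range were named. Other genes named are levels of cell markers. The strand setting of the counting was not given in the sources used here, so reads from overlapping antisense genes cannot be told apart. Group means in the table were not used.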

Additional observations from a re-analysis of the deposited data

How the results depend on the processing

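Without the replicate block, no gene was called in the main setting or under DESeq2 size factors, library totals, either filter or limma-trend on log2(FPKM + 1), while DESeq2 called 12 genes and the GC offset, chosen after seeing the data, called 9. With 1 library left out, 0 to 1 genes were called. With the replicate block, 110 genes were called, 192 with library totals, 58 with DESeq2 and 101 with the GC offset. Leaving out replicate 1, 2 or 3 in both groups with the block gave 529, 18 and 293 genes. The block called no member. 1 member was called under DESeq2 with the block (FOSL1), without replicate 1 in both groups (JUND) and without replicate 3 in both groups (FOSL1). DESeq2 with the block gave JUND and ATF3 no adjusted p.

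For the replicate number, 1765 genes were called by the DESeq2 likelihood ratio test and 984 with the GC offset, against 3684. Of the members, 2 were called with DESeq2 size factors (3627 genes), 1 by the DESeq2 likelihood ratio test, 2 by limma (2918 genes), 4 with library totals (3793 genes) and 4 with all genes of at least 1 count (3864 genes), against 3.

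Directions turned only for members near 0, or with the GC offset. By library totals, JUN was at 0.0174 and IER3 at 0.00647, and with the block at 0.0167 and 0.00645. By limma, JUN was at 0.0168, IER3 at 0.00979 and MYC at 0.000317. With the GC offset, JUN was at 0.0439, JUNB at 0.0148, EGR1 at 0.00146, IER2 at 0.0255 and IER3 at 0.0492, and with the offset and the block at 0.0421, 0.0125, 0.00409, 0.0251 and 0.0501. With the block, MYC was at 0.0263 without replicate 1 in both groups and JUN at 0.0455 without replicate 3. With single libraries left out, the log2 fold change ranged from -0.0776 to 0.0203 for JUN, from -0.0993 to 0.0252 for EGR1, from -0.0536 to 0.0161 for IER3, from -0.36 to 0.41 for ATF3 and from -0.0999 to 0.055 for MYC. The cause of these changes was not tested. FOS, FOSL1 and JUND kept their direction in every setting run.

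These libraries hold 278 to 9992 counts for each member. The share of counting error in the spread between libraries was not computed.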
